A study of Mus musculus with 21 samples.

Results

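The data described here are the single-nucleotide variants (SNVs) listed in 6 mouse cell cycle genes: Cdk4, Ccne1, Mad2l1, Ccnb2, Plk1 and Rb1. Members were all lines of the 18 deposited SNV lists whose gene name is one of these 6 and whose region is not intergenic. They came to 9 of the 4358 distinct sites of the embryonic stem cell (ESC) lists and 10 of the 15030 distinct sites of the tumour lists. The 6 genes were chosen by their SNV calls in earlier results of these data, so that they were called is a description and was not tested.

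Genomic DNA from cells and tumours of the strain written C57BL6X129S6F1 was sequenced to compare genome stability between culture conditions. The 10 ESC libraries came from 5 conditions with 2 libraries each, numbered 3 and 5 in the labels. Tumour lists came from 8 libraries of mice that tetraploid complementation had produced from ESCs: A2iL-P9 (3), LCDM-P9 (2), A2iL-P14 (1), 2iL-F-P9 (1) and 2iL-P9 (1). ESC lists were called against 1 library of mouse embryonic fibroblasts (MEFs), and tumour lists against wild-type blood. The series has 2 blood libraries, and the headers do not settle which of them, or both, gave the blood control reads. LCDM cells grew in N2B27 with CHIR99021, an inhibitor of GSK3 (3 µM), and the additives labelled Dim and Mih (2 µM each). A2iL cells had CHIR99021 (3 µM) and CGP77675, an inhibitor of Src (1.5 µM), also in N2B27. The 2iL-F and 2iL cells had CHIR99021 (3 µM) and PD0325901, an inhibitor of MEK (1 µM). Cells in SL had KO-DMEM medium with serum (15%). All 5 media held leukaemia inhibitory factor (1000 IU), and all cells except 2iL-F grew on feeder cells. Whether feeder cells were removed before DNA was prepared, whether libraries 3 and 5 are separate cultures, and what P9 and P14 mean is not given in the labels. The series names exome sequencing in its title and ATAC-seq for the tumours in its design text.

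These genes act at successive steps of cell division. Cdk4, a kinase partnered by D-type cyclins, and Cdk2, activated by Ccne1 (cyclin E1), phosphorylate the product of Rb1, a repressor of entry into S phase. Ccnb2, cyclin B2, and Plk1, polo-like kinase 1, drive mitosis, and Mad2l1 (MAD2) holds chromosome segregation back until the spindle is attached. ESCs are known for a short G1 phase with high activity of Cdk2.

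In the ESC lists, 4 genes (Ccne1, Cdk4, Mad2l1 and Ccnb2) had exactly 1 call in each of the 10 libraries, all of them coding. Plk1 and Rb1 had 1 call each, intronic and in a single library. Of all 571 genes with an exonic ESC call, 264 (46.2%) had one in all 10 lists, so a call in every library is common in these lists. Of the 9 sites, 8 were transitions, against 57.8% of all ESC sites. None of the 9 lay in a segmental duplication, and 1 (in Plk1) lay in a repeat. The MEF control had 0 alternative reads at all 9 sites, at depths of 14 to 99 reads. That is usual in lists called against this control: 8.65% of the ESC sites called in all 10 lists had alternative reads in it. No ESC site carried a dbSNP identifier. Median depths were 54 to 72 reads per ESC library over all its calls. A list gives reads only where it holds a call, so a library without a call has no measured fraction at that site.

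Ccne1 R134C was the only member change listed at the same site in all 10 ESC libraries. It is C400T in the coding sequence, the first base of its codon in exon 6, at chromosome 7, position 38102842 (mm10), with the gene on the minus strand. Background for this is that 636 of 4358 ESC sites (14.6%) were called in all 10 lists. The alternative-allele fraction, the share of reads at the site with the changed base, was 0.318 and 0.293 in LCDM libraries 3 and 5, from 14 of 44 and 12 of 41 reads. In A2iL it was 0.628 (27 of 43 reads) and 0.635 (40 of 63), and in 2iL-F 0.681 (32 of 47) and 0.633 (38 of 60). Both LCDM libraries lay below all of these. In 2iL the fraction was 0.542 (26 of 48) and 0.517 (15 of 29), and in SL 0.667 (28 of 42) and 0.591 (13 of 22). The MEF control had 0 of 47 reads with the change, which allows a share of up to 6.38%.

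The 2 LCDM libraries did not overlap the other 8. The mean fraction was 0.306 ± 0.0177 in LCDM, against 0.632 ± 0.00495 in A2iL, 0.657 ± 0.0339 in 2iL-F, 0.530 ± 0.0177 in 2iL and 0.629 ± 0.0537 in SL (SD, n = 2 each). Summed over libraries, 26 of 85 LCDM reads carried the change (30.6%, 95% Wilson interval 21.8 to 41.0%), against 219 of 354 reads in the other 8 libraries (61.9%, 56.7 to 66.8%). Single libraries are less certain: the upper Wilson bound of LCDM library 3 was 0.466, and 5 of the 8 others had a lower bound above it. Such intervals cover counting error only. LCDM was singled out by these values, so its difference from the other libraries is a description.

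**Figure D1:**
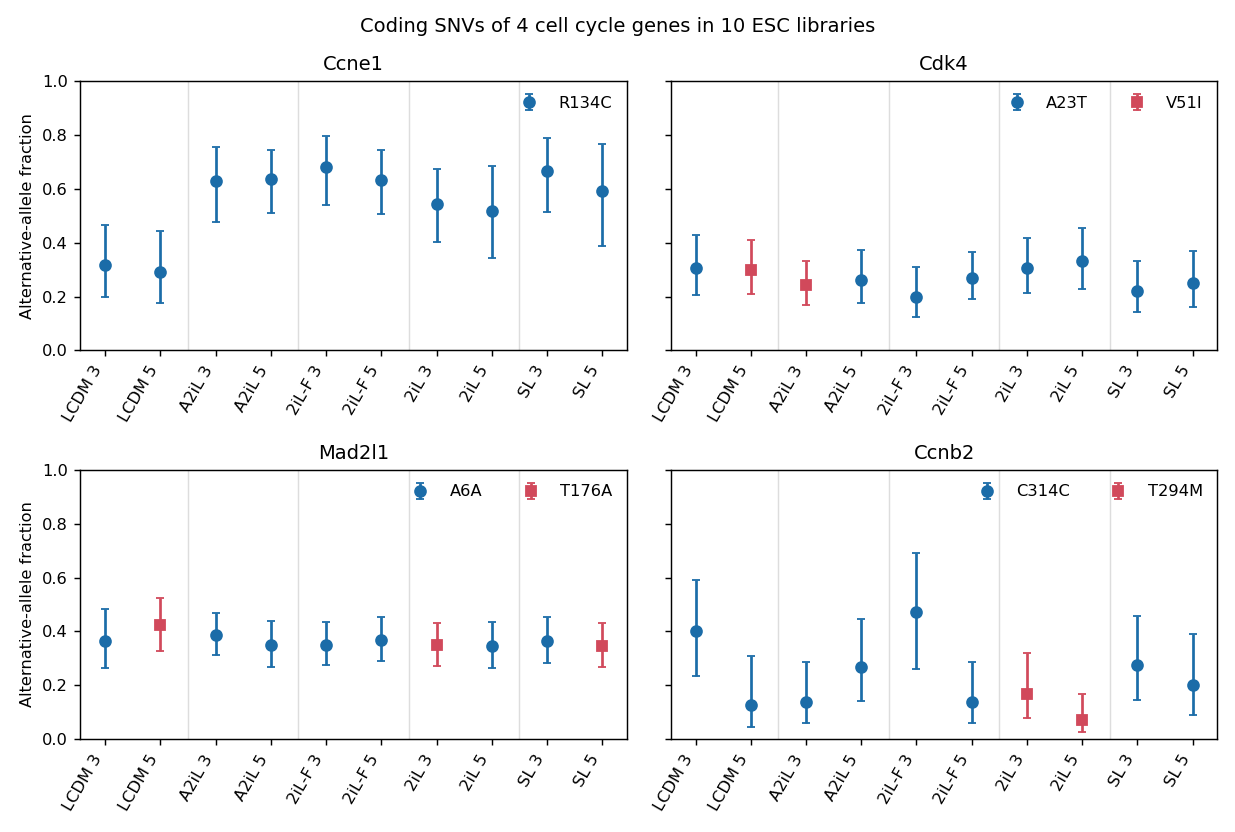
Alternative-allele fraction (y axis) of the coding SNVs of Ccne1, Cdk4, Mad2l1 and Ccnb2 in each of the 10 ESC libraries (x axis, condition and label number), with 95% Wilson intervals; colours and symbols mark the site that the library's list holds. Ccne1 R134C is in every library, lowest in LCDM (0.318 and 0.293), while each library holds 1 of the 2 sites of the other genes.

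Fractions at the Ccne1 site were compared across the 5 conditions together with all other sites called in all 10 lists. In the exact permutation F test, which is one-sided by construction, Ccne1 had p = 0.0116, and 0.404 after Benjamini-Hochberg adjustment over the 636 sites. None of the 636 sites passed at an adjusted threshold of 0.05 (background 0%), and 68 (10.7%) had an unadjusted p under 0.05. Given the smallest p that 5 pairs allow (0.00106), a single deviating site cannot reach an adjusted p below 0.673, and a miss here does not show that the conditions are alike. In a chi-square test of reference and alternative reads over the 10 libraries, which asks whether libraries differ beyond counting error, Ccne1 passed (chi-square 30.9, 9 degrees of freedom, adjusted p = 0.00839), as did 34 of the 636 sites (5.35%). That call needed both LCDM libraries: the adjusted chi-square p was 0.161 without LCDM library 3 and 0.241 without LCDM library 5. With neither LCDM library in the test, a choice made once these values were known, it was 0.966. Over the other 11 alternatives it ran from 0.00435 to 0.0168, and the call was kept.

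At the typical site LCDM fractions were not low, but the low tail of differences was longer than the high one. Over the 636 sites the LCDM mean minus the mean of the other 8 libraries had a median of 0.00631, with 5th and 95th percentiles of -0.114 and 0.094. At Ccne1 it was -0.306, and 4 sites including Ccne1 had a difference at least that far below 0. Aifm2 came next, also at -0.306 when rounded, and Cep192, at rank 18 from the lowest, had -0.201. The highest difference was 0.265, at an intergenic site, followed by 0.194 at Dck. A low fraction in LCDM was therefore not particular to Ccne1. Both LCDM libraries lay below all 8 others at 29 sites (4.56%) and above them at 19. The depth at the Ccne1 site was 44 and 41 reads in LCDM, within the range of the other libraries (22 to 63 reads). At the 10 sites nearest to Ccne1 on chromosome 7, 212 kb to 3.88 Mb away, the same difference was -0.0503 to 0.0558, although 7 of these sites lie in segmental duplications.

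**Figure D2:**
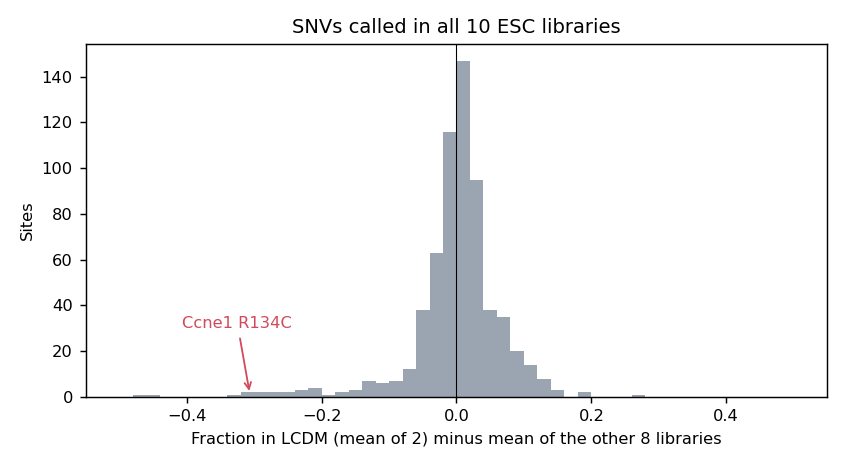
Histogram of the mean fraction in LCDM (2 libraries) minus the mean in the other 8 ESC libraries (x axis) over the 636 sites called in all 10 lists (y axis, sites per bin). The median is 0.00631 and Ccne1 R134C, marked by the arrow, lies in the left tail at -0.306.

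Among the 214 exonic sites called in all 10 lists, those whose fractions over the 10 libraries followed Ccne1 most closely were in Ssh2, Snapc4 and Vmn2r36. Ssh2, a phosphatase of the actin regulator cofilin, carries N378I on chromosome 11 (Pearson r = 0.905 over 10 libraries), with a mean fraction of 0.193 in LCDM and 0.428 in the other 8. Snapc4, a subunit of the small nuclear RNA activating complex, carries the synonymous Q335Q on chromosome 2 (r = 0.851), with 0.170 in LCDM and 0.467 in the others. The vomeronasal receptor gene Vmn2r36 (L786L, r = 0.836) had 0.173 and 0.193, and lies in a segmental duplication. These correlations are the highest of many and are descriptions.

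At Cdk4 each library held 1 of 2 missense changes in exon 2, 84 bp apart on chromosome 10. A23T (G67A in the coding sequence, position 127064302) was in 8 lists and V51I (G151A, position 127064386) in LCDM library 5 and A2iL library 3. Each of these 2 libraries has a partner of the same condition with A23T, so the split does not follow the conditions. The V51I fraction was 0.299 in LCDM 5 (23 of 77 reads) and 0.243 in A2iL 3 (25 of 103). For A23T it was 0.306 in LCDM 3 (19 of 62 reads) and 0.263 in A2iL 5 (20 of 76). In 2iL-F A23T had 0.200 and 0.269, in 2iL 0.307 and 0.333 and in SL 0.222 and 0.250. The range of A23T, 0.200 to 0.333, holds both V51I values, and the mean fractions of the 2 sites were 0.271 for V51I and 0.269 for A23T. MEF reads numbered 56 at V51I and 44 at A23T, 0 of them with the change, which allows shares of up to 5.36% and 6.82%.

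Mad2l1 showed the same arrangement over a longer distance. T176A (A526G, exon 5, chromosome 6, position 66539851) was listed in LCDM 5, 2iL 3 and SL 5, and the synonymous A6A (C18T, exon 1, position 66535544), 4307 bp away, in the other 7 libraries. T176A had fractions of 0.422 in LCDM 5 (38 of 90 reads), 0.348 in 2iL 3 (47 of 135) and 0.344 in SL 5 (43 of 125). A6A had a lowest fraction of 0.345, a median of 0.364 and a highest of 0.386, at depths of 71 to 145 reads. Apart from the 0.422 of LCDM 5, whose Wilson interval of 0.325 to 0.525 covers every A6A value, the fractions of both sites were within about the same narrow range. In LCDM, 2iL and SL the libraries 3 and 5 differed in which site was listed, and in A2iL and 2iL-F both held A6A. The MEF control had 0 of 99 reads with T176A and 0 of 67 with A6A.

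Ccnb2 was the member whose split followed a condition. T294M (C881T, exon 7, chromosome 9, position 70410215) was listed in both 2iL libraries, and the synonymous C314C (C942T, position 70410154), 61 bp away, in the other 8. T294M had a fraction of 0.167 in 2iL 3 (6 of 36 reads) and 0.070 in 2iL 5 (4 of 57). With a minimum of 5 alternative reads only the 2iL 3 call of T294M is left, so the split by condition rests on few reads. C314C ranged from 0.125 in LCDM 5 (3 of 24 reads) to 0.471 in 2iL-F 3 (8 of 17), with a median of 0.234. Within a condition the C314C fractions of the 2 libraries, whose Wilson intervals overlapped each time, were 0.40 and 0.125 in LCDM, 0.139 and 0.267 in A2iL, 0.471 and 0.139 in 2iL-F, and 0.276 and 0.200 in SL. These rest on 3 to 10 alternative reads per library, fewer than at any other recurrent member site except T294M. The mean fraction was 0.119 for T294M and 0.252 for C314C, with overlapping libraries. MEF reads with the change were 0 of 37 at T294M and 0 of 28 at C314C, which allows up to 8.11% and 10.7%. RefSeq lists a pseudogene, Ccnb2-ps, and whether its reads enter these counts was not tested.

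The mutually exclusive pairs and the common site were set against all ESC sites. Within an ESC list no 2 calls of a chromosome lay closer than 10017 bp, whereas the tumour lists had calls 1 bp apart. A list could therefore hold only 1 of the 2 sites of Cdk4, Mad2l1 or Ccnb2, and neither site can be taken as absent where the other is listed. Sites were chained into neighbour groups wherever successive sites of any library were at most 10 kb apart, which gave 3027 groups. In 1090 of them (36%) every library had exactly 1 call, and all 4 recurrent member genes are among these. Of the 1090 groups, 636 held a single common site, as at Ccne1, and 454 (41.7%) held several sites of which each library listed 1. Groups of 2 sites numbered 280. They were split 9 to 1 in 91 groups, 8 to 2 in 63, 7 to 3 in 58, 6 to 4 in 46 and 5 to 5 in 22, so the splits of Cdk4, Ccnb2 (8 to 2) and Mad2l1 (7 to 3) are of common kinds. The 2 libraries of the less called site were those of 1 condition in 9 of the 63 groups split 8 to 2, Ccnb2 among them. A split by condition was therefore not particular to Ccnb2. Whether 9 is more than a random allotment of libraries gives was not tested.

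**Figure D3:**
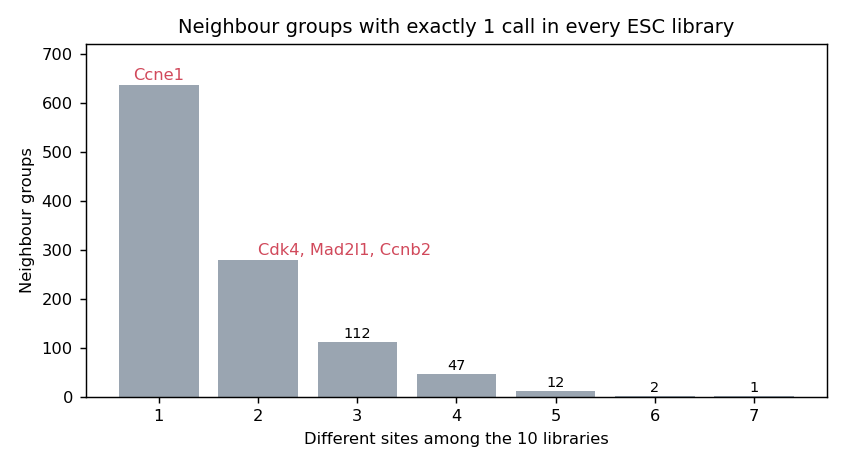
Number of neighbour groups (y axis) in which each of the 10 ESC libraries had exactly 1 call, by the number of different sites that these calls fall on (x axis). Ccne1 is 1 of the 636 groups with a common site, and Cdk4, Mad2l1 and Ccnb2 are among the 280 groups with 2 sites.

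Calls shared out among neighbours had a lower median fraction (0.242) than calls at common sites (0.317) over all ESC sites of these groups, and 70.1% of their sites lay in segmental duplications, against 35.4% of the common sites. The median depth was 92 reads for the calls shared among neighbours and 81 for the common ones. The members do not share the duplications, as none lies in one. Ccne1, with a median of 0.610, was among the 28 common sites with a median fraction at least that high. The median difference between the mean fractions of the 2 sites of a group was 0.0358. Cdk4 (0.00225) and Mad2l1 (0.0102) had smaller differences and Ccnb2 (0.134) a larger one, which 48 of the 280 groups reached, Ccnb2 included.

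Both sites were exonic and in the same gene in 47 of the 280 groups, 36 of these outside segmental duplications. Beside Cdk4 there were 56 coding groups of 2 or more sites with 1 call per library. Among those whose libraries were divided most like those of Cdk4, ties taken by symbol, were Gm4461 and H2-M10.1 (9 of 10 libraries alike). Creb3l2 and Pramef6 followed (8 of 10, as in other groups). This likeness is loose, since 1 site listed in all 10 libraries would also give 8 of 10. Creb3l2 and Pramef6 shared only A2iL 3 with the libraries that listed V51I at Cdk4. At H2-M10.1, a class I histocompatibility gene, LCDM 5 listed R243R (0.069) and the other 9 libraries T264T (0.116 to 0.174). At Creb3l2, a transcription factor gene, A2iL 3 and LCDM 3 listed L160L and the other 8 P135P. H2-M10.1 and Pramef6 belong to multigene families, so their reads may be shared with copies.

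The 2 other members had little support in the ESC lists. The intronic Plk1 site (chromosome 7, position 122160842) was called in 2iL-F 3 from 2 of 8 reads (fraction 0.250, Wilson interval 0.0715 to 0.591), in a simple repeat, where the MEF control had 0 of 14 reads. The intronic Rb1 site (chromosome 14, position 73198596) was called in A2iL 5 from 5 of 74 reads (0.068, interval 0.0292 to 0.149), against 0 of 62 MEF reads, which allows a share of up to 4.84%. No other ESC library had a call within 10 kb of these sites. No call of another gene lay within 10 kb of any of the 9. At the recurrent sites the spacing of calls within each list largely fixes this, so it says little about those loci.

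Other cell cycle genes were taken from a list of 102 (cyclins, kinases, inhibitors, replication licensing, spindle checkpoint and anaphase-promoting complex), chosen with earlier results known. In the ESC lists 13 of the 102 genes (12.7%) had a call outside intergenic regions, against 1517 of 21896 RefSeq protein-coding genes (6.93%). Of those 13, 6 are the members, chosen because they had calls, and the other 96 list genes gave 7 (7.29%). Pcna, the sliding clamp of DNA polymerases, had the synonymous T206T in all 10 libraries at fractions of 0.241 to 0.398. Fbxo5, an inhibitor of the anaphase-promoting complex, had the synonymous D136D in 7 libraries (0.044 to 0.12). Anapc1, a scaffold subunit of that complex, had the synonymous C1586C in both 2iL libraries only (0.056 and 0.063). Intronic or 3' UTR calls made up the rest, in Atm, Dbf4, Mcm3, Mcm7 and again Anapc1. At Mcm7, a replicative helicase subunit, 8 libraries listed one 3' UTR site and the other 2 a neighbour. No gene of this list outside the members had a missense ESC call, but these 96 genes had only 3 exonic ESC sites. Over all protein-coding genes 526 of 21896 (2.40%) had an exonic ESC call. The members were chosen by their calls, so this is no contrast with them.

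In the tumours calls fell in Plk1 and Rb1, and none of the 8 lists had a call in Cdk4, Ccne1, Mad2l1 or Ccnb2. Most genes had none: 3367 of 21896 RefSeq protein-coding genes (15.4%) had a tumour call outside intergenic regions. Of the 102 genes of the cell cycle list, 24 (23.5%) had one. These include Plk1 and Rb1, which were chosen by their calls, and the list was chosen with earlier results known, so the 2 shares are no contrast. None of the 9 ESC member sites was in a tumour list, and over all ESC sites 207 of 4358 were. The tumour lists differ from the ESC lists in that 97.2% of their calls have a dbSNP identifier, as did all 10 member sites there, and their controls differ too. Call numbers were therefore not compared between tumours and ESCs. Of the 10 tumour sites, 8 lie in Plk1 and 2 in Rb1, and 7 were listed in the same 7 libraries. The remaining library, LCDM-P9 replicate 2, had no call in any of the 6 genes. Its list held 3634 calls, against 9752 to 10325 in the others, and it lacked 7271 sites that all 7 others list.

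Both Rb1 sites were intronic, 50910 bp apart on chromosome 14. At position 73211540 the fraction was 0.459, 0.477 and 0.517 in the A2iL-P9 tumours, 0.442 in LCDM-P9 replicate 1, 0.375 in A2iL-P14, 0.474 in 2iL-F-P9 and 0.458 in 2iL-P9. All 7 tumours lay between 0.375 and 0.517, at depths of 61 to 96 reads. At position 73262450 the 7 tumours ranged from 0.387 to 0.622 with a median of 0.550, at 31 to 60 reads. A2iL-P14 was lowest at the first site and among the 2 highest at the second (0.615). The blood control had 1 of 98 reads with the change at the first site and 1 of 42 at the second.

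The coding Plk1 changes of the tumours were synonymous, D447D and Y462Y in exon 8, 45 bp apart. D447D had fractions of 0.388, 0.467 and 0.426 in the A2iL-P9 tumours, 0.294 in LCDM-P9 replicate 1, 0.355 in A2iL-P14, 0.345 in 2iL-F-P9 and 0.355 in 2iL-P9. Y462Y had 0.385, 0.476 and 0.444 in the A2iL-P9 tumours, 0.304 in LCDM-P9 replicate 1, 0.322 in A2iL-P14, 0.388 in 2iL-F-P9 and 0.348 in 2iL-P9. At both sites LCDM-P9 replicate 1 was the lowest and A2iL-P9 replicate 2 the highest of the 7. Reads can cover both sites, so these are not independent. The blood control had 1 of 37 reads with the change at each.

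Of the 6 intronic Plk1 sites, 3 were in 7 libraries, 2 in 6 (not in A2iL-P9 replicate 2) and 1 in A2iL-P9 replicate 1 only (3 of 13 reads), 75 bp from the ESC site. The 2 sites in 6 libraries lie 19 bp apart and had their highest fractions in 2iL-F-P9, 0.765 (13 of 17 reads) and 0.733 (11 of 15), and their lowest in LCDM-P9 replicate 1, 0.313 and 0.231. These sites rest on 9 to 30 reads per library. The lowest fractions of recurrent sites were at position 122161719, with 0.120 in A2iL-P9 replicate 1 up to 0.326 in 2iL-P9. The header names of the 2iL-F-P9 and 2iL-P9 lists do not match their labels, so values given for these 2 tumours hold for the sample each file is recorded for. Most tumour groups have 1 library, and no test was made between them.

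**Figure D4:**
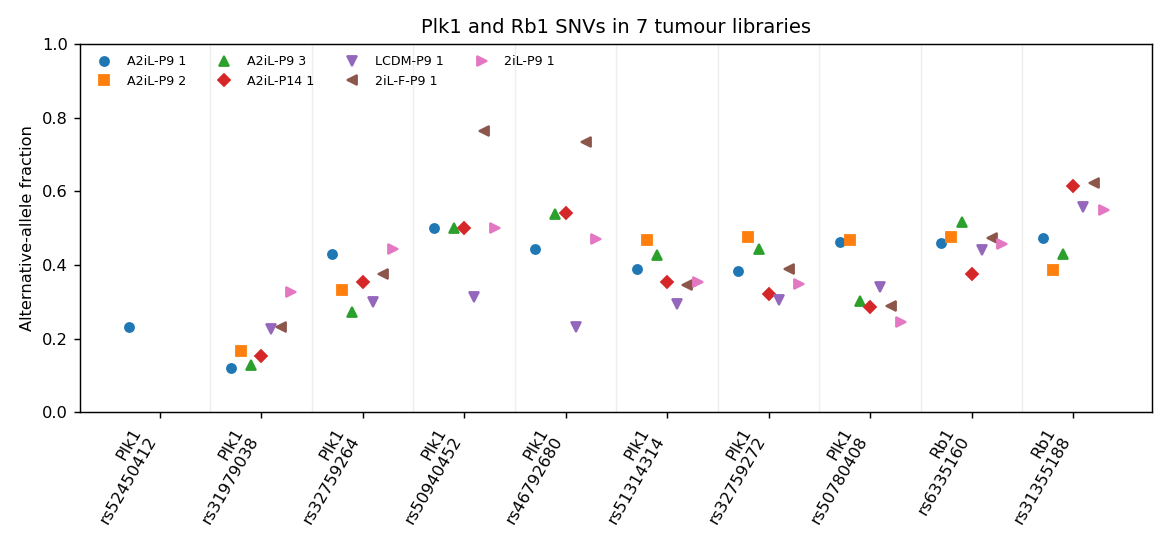
Alternative-allele fraction (y axis) of the 8 Plk1 and 2 Rb1 sites, named by dbSNP identifier in order along each gene (x axis), in the 7 tumour libraries that list them, 1 symbol per library. Rb1 fractions lie between 0.375 and 0.622 and Plk1 fractions between 0.120 and 0.765, with the widest spread at the 2 sites 19 bp apart.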

How the data were processed

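Libraries of genomic DNA were amplified with SureSelect primers, per the labels' protocols. BWA, Picard, SAMtools and the build mm10 are named, without roles or versions, per the submitters' processing notes; the caller of the SNVs was not given in the sources used here. Each deposited line holds, per the file headers, genotype, read counts per allele, base quality, depth, alternative-allele fraction and status for a library and its control. All 91523 lines were marked as passing and somatic. Control values were the same in every list of a set, so each set shares its control.

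The 6 genes, the gene list and the tests were chosen with earlier results of these data known. Named were all member sites, exonic ESC sites of the cell cycle list, the 3 exonic sites most correlated with Ccne1 R134C and 5 genes divided most like Cdk4, 1 of which is not reported here. Additions outside this rule are the nearest sites and the intronic and 3' UTR calls of the cell cycle list, the Mcm7 pair among them. Aifm2, Cep192 and Dck, picked from the ranked LCDM differences, are further additions. All were added after their values were seen.

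Deposited fractions at sites called in all 10 ESC lists were compared by an exact permutation F test over all partitions of the libraries into pairs, and read counts by a Pearson chi-square test, both with Benjamini-Hochberg adjustment over 636 sites. Intervals are Wilson's at 95%. A count of 0 allows 3 counts of the total. Reads are not independent molecules. The F test sets the spread between conditions against that within pairs of libraries. The chi-square test sets the spread between libraries against counting error of reads. In both, differences between libraries may be technical. Alternatives covered scale, depth, base quality, duplications, windows, a block and left-out libraries. Tests were checked on simulated reads drawn with counting error only, so the check does not cover reads that are not independent. Protein changes are numbered as in the deposited annotation; gene extents and symbols came from RefSeq (GRCm38.p6). Analyses used Python 3.11.15, numpy 2.4.6, pandas 2.3.3 and scipy 1.17.1.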

Additional observations from a re-analysis of the deposited data

How the results depend on the processing

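The number of sites whose fraction differed among conditions was 0 in the main setting and under all alternatives (exact permutation F test), and the adjusted p of Ccne1 R134C ran from 0.314 to 0.617. With the label number as a replicate block it was 0.617 and the number of sites again 0. Deviations of same-numbered libraries of different conditions correlated by -0.117 to 0.0792 over 10 pairs of conditions. These deviations showed no pairing by label number. The unchanged count does not bear on pairing, as no site passed without the block either. The chi-square test passed 34 sites, 19 outside segmental duplications and repeats, 20 to 34 without single libraries and 14 without both LCDM libraries. The fall outside duplications and repeats goes with fewer sites tested (382); the cause of the others was not tested. The LCDM difference at Ccne1 stayed between -0.320 and -0.294 when single libraries were left out. Neighbour groups with 1 call in every library numbered 1090, 768 with a window of 20 kb, 1055 with 5 kb and 518 outside duplications and repeats, where fewer sites enter; those of several sites numbered 454, 269, 419 and 136. All 4 recurrent genes were among them each time. Splitting the gene name cells left 9 ESC and 10 tumour sites; minimum reads, alternative reads or base quality left 8 to 9 and 8 to 10. At 8 reads the ESC Plk1 call is limited by depth.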
